A study of Mus musculus with 24 samples.

Results

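The common gamma chain (γc) cytokine genes were followed after early-life antibiotic in C57BL/6 mice, in the terminal ileum (the stretch of small intestine before the colon). The 8 genes were Il15, Il7, Il2, Il2rb, Il2rg, Il7r, Il21r and Jak3, out of 547 genes on a NanoString immunology panel, and all 8 were in the table. They were picked from measured values of these same mice, because Il15 was higher after antibiotic while genes of intraepithelial lymphocytes were lower. Differences from Control in these genes are therefore given as a description with no test. PAT3 against PAT1, the sexes and the relations between mice were not used in that choice and were tested.

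The study asked whether 1 early macrolide course changes the host as repeated courses do. PAT1 mice (pulsed antibiotic treatment, n = 7, 4 male and 3 female) received 1 course of tylosin, a macrolide, through the nursing dam. PAT3 mice (n = 10, 4 male and 6 female) received that course and 2 later ones after weaning, and Control mice (n = 7, 4 male and 3 female) received water without tylosin. These groups are those of the labels. The group sizes the study states differ from them by a single mouse between PAT1 and PAT3, which was not resolved here. All were C57BL/6 mice bred under specific-pathogen-free conditions, with no engineered allele named, and were sampled at week 7 of life. Whole litters were assigned to a group and mice were housed by sex and group after weaning, so litter, cage and treatment cannot be told apart. Each value is a log2 normalised count of a probe hybridised to total RNA, and levels of different genes are not compared because each probe has its own efficiency. Totals ranged from 171671 to 782392 counts per sample, with PAT1 replicate 1 the shallowest. The median log2 level of all genes averaged 6.97 in Control, 6.82 in PAT1 and 6.78 in PAT3, so that re-centring each sample on its median shifts every difference from Control upward. Ccl25, a chemokine of the small intestinal epithelium, had a median count of 8351 in Control and of 18110 and 17496 after 1 and 3 courses, as a check of the tissue.

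The γc cytokines include IL-2, IL-7, IL-15 and IL-21, whose receptors all contain the chain encoded by Il2rg. JAK3 is the kinase bound to that chain, and it passes the signal to STAT proteins. IL-15 is made by epithelial, stromal and myeloid cells, is presented on the IL-15 receptor alpha chain and signals through Il2rb and Il2rg on neighbouring cells, and in the gut it is known for maintaining intraepithelial CD8 T cells and natural killer cells. IL-7 is made by epithelium and stroma and sustains T cells and innate lymphoid cells through Il7r, IL-2 is made by activated T cells, and Il21r is carried by B cells and activated T cells.

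Promoters of Il2rg, Il21r and Jak3, which were lower together in PAT3, and of Il7r, which was not, are shown to set their sequences side by side. Each runs from 250 bases before to 50 bases after the RefSeq start on the coding strand of assembly GRCm38.p6. Of the 8 genes, 5 had a promoter in the table used. Capitals mark matches on either strand to TGTGGT, the core bound by RUNX factors of T and natural killer cells, or to TTCNNNGAA, the element bound by STAT dimers; the motifs do not overlap in these windows.
Il2rg, chrX:101268206-101268505, minus strand: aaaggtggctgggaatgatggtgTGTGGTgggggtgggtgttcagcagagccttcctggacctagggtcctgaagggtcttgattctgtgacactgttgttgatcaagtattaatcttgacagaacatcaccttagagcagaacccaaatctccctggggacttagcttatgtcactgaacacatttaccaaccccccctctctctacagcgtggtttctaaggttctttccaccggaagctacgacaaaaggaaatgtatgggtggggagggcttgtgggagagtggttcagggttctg
Il21r, chr7:125603179-125603478, plus strand: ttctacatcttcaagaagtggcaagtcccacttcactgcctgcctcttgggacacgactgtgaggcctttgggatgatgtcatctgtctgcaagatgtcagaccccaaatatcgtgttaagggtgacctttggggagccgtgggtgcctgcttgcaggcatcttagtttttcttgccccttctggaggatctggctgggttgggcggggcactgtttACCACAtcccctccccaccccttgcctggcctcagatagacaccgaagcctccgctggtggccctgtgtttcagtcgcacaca
Jak3, chr8:71676133-71676432, plus strand: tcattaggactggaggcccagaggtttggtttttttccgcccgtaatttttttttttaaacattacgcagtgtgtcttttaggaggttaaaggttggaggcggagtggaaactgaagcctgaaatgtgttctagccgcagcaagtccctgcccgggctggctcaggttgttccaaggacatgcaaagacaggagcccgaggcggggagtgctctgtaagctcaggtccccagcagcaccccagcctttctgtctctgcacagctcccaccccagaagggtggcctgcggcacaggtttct
Il7r, chr15:9529827-9530126, minus strand: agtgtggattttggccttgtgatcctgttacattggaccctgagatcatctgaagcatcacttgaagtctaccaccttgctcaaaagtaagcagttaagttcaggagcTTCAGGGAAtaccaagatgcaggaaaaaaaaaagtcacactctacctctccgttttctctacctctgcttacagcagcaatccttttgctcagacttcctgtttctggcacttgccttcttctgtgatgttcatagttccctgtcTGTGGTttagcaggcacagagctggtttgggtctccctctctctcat
TGTGGT or its reverse complement was found once each in the Il2rg, Il21r and Il7r windows and not in that of Jak3. Of 32851 promoters of this length, 16.8% held it. TTCNNNGAA was found in the Il7r window, where the pattern matches on both strands, and not in the other 3, and 8.3% of all promoters held it. TGTGGT therefore did not separate the lower genes from Il7r. TTCNNNGAA did, but through a single window, and a match is only a description of these bases.

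Il15, the ligand, was the one member higher in both antibiotic groups with counts well above 0. It ranged from 6.42 to 7.22 on the log2 scale in Control (median 6.73), from 7.57 to 8.47 in PAT1 (median 7.91) and from 6.67 to 8.38 in PAT3 (median 7.96). Every PAT1 mouse lay above every Control mouse, whereas PAT3 replicates 5 and 3, at 6.67 and 6.96, lay inside the Control range and the other PAT3 mice between 7.73 and 8.38. The Control mean was 6.83 ± 0.34 (SD, n = 7), the PAT1 mean 8.04 ± 0.33 (SD, n = 7) and the PAT3 mean 7.79 ± 0.55 (SD, n = 10), and the median counts were 122, 212 and 264. The mean was thus higher than in Control by 1.21 log2 in PAT1 (SE 0.23, 2.31-fold, 95% interval 1.66 to 3.22) and by 0.96 in PAT3 (SE 0.21, 1.95-fold, 1.44 to 2.64). These comparisons share the 7 Control mice. In bulk tissue, more or fewer cells of a type and more or less RNA per cell cannot be told apart.

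Il7, the other ligand of the epithelium, went the other way. It ranged from 6.88 to 7.45 in Control (median 7.18), from 6.27 to 6.89 in PAT1 (median 6.63) and from 6.17 to 7.15 in PAT3 (median 6.68). All 7 PAT1 mice were below the Control mean and overlapped Control only at its lowest mouse, while 3 PAT3 males (7.01 to 7.15) lay within the Control range. The mean was lower by 0.54 log2 in PAT1 (SE 0.15, difference -0.54) and by 0.48 in PAT3 (SE 0.14, difference -0.48). Il2, the T cell growth factor, was counted 0 to 14 times in a mouse and was listed at 0 in 3 Control, 2 PAT1 and 1 PAT3 mice. Its means were 1.55 ± 1.49 (SD, n = 7), 2.01 ± 1.45 (SD, n = 7) and 2.21 ± 1.57 (SD, n = 10), and at this depth no difference between groups was detectable.

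**Figure D1:**
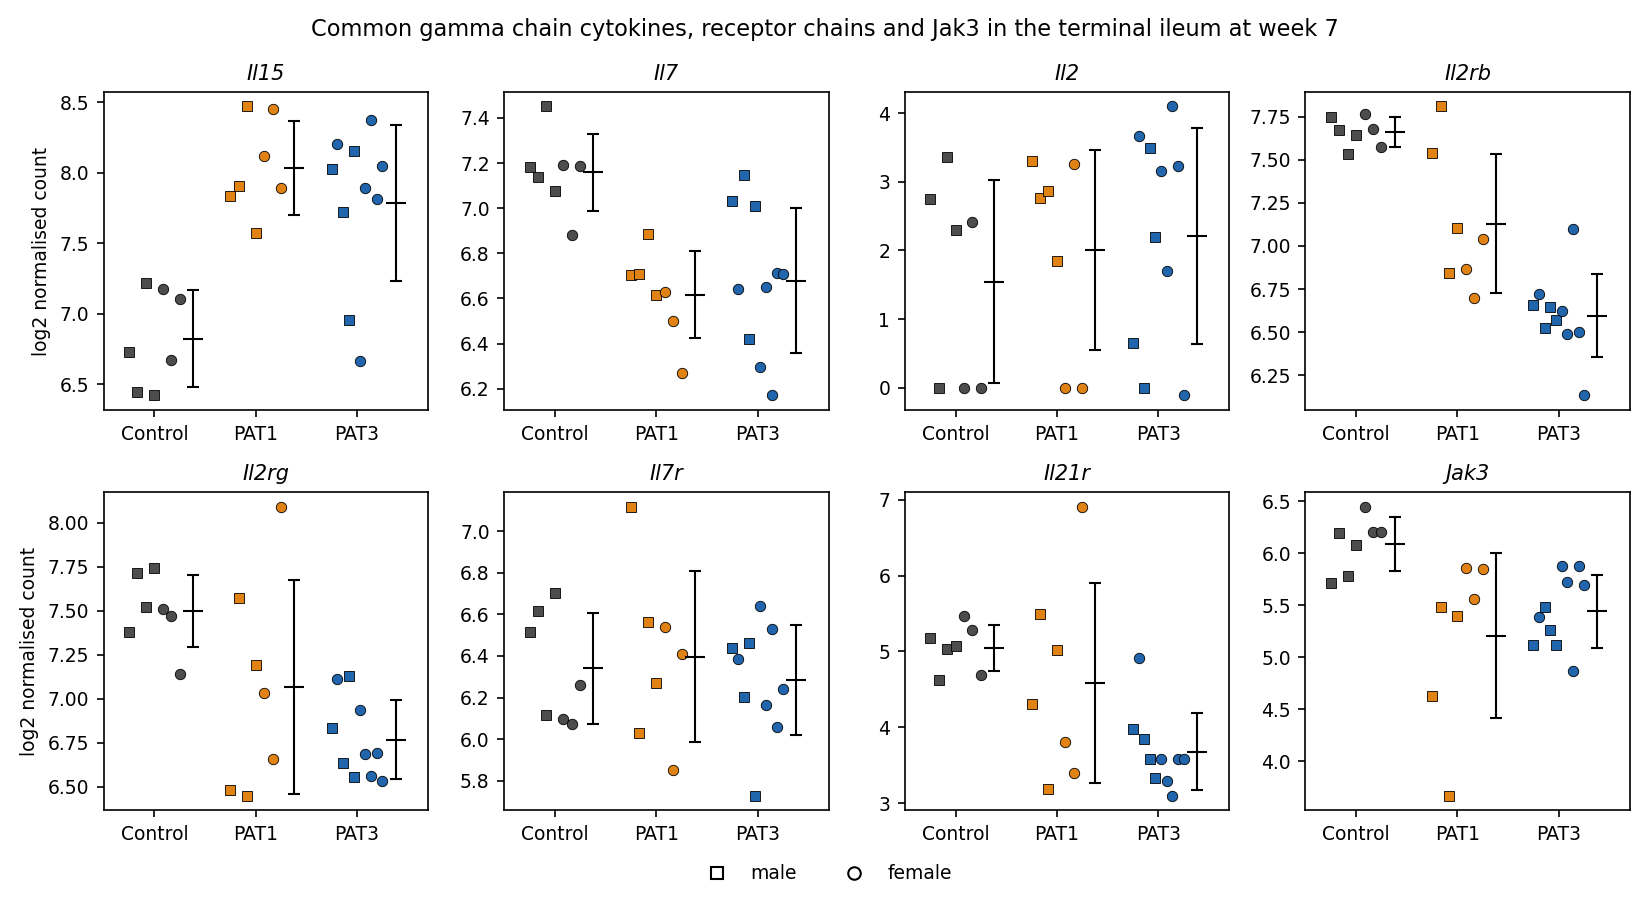
Log2 normalised count of each of the 8 genes in each mouse (squares male, circles female; each panel has its own axis), with the group mean and SD to the right of each group. Il15 lies higher in PAT1 than in any Control mouse, Il2rb lies between 6.13 and 7.10 in PAT3 against 7.53 to 7.77 in Control, and the groups overlap throughout for Il7r.

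The signalling chains of the IL-15 receptor had lower group means than Control in PAT1 and PAT3, although not in every mouse. Il2rb, the chain shared by the IL-2 and IL-15 receptors, was tight in Control, from 7.53 to 7.77 (median 7.67). It ranged from 6.70 to 7.81 in PAT1 (median 7.04) and from 6.13 to 7.10 in PAT3 (median 6.60), so PAT3 lay wholly below Control while PAT1 replicates 2 and 1 (7.81 and 7.54) reached Control levels. Means were 7.66 ± 0.09 (SD, n = 7), 7.13 ± 0.40 (SD, n = 7) and 6.60 ± 0.24 (SD, n = 10). The difference from Control was -0.53 log2 in PAT1 (SE 0.15) and -1.06 in PAT3 (SE 0.14, 0.479-fold, 95% interval 0.39 to 0.586).

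Il2rg, the γc chain itself, ranged from 7.14 to 7.74 in Control (median 7.51), from 6.45 to 8.09 in PAT1 (median 7.03) and from 6.53 to 7.13 in PAT3 (median 6.69). The 10 PAT3 mice lay just below the lowest Control mouse, and PAT1 spread on both sides of Control, with replicate 7 at 8.09 the highest of all 24. Its difference from Control was -0.43 in PAT1 (SE 0.20) and -0.73 in PAT3 (SE 0.18). Jak3, the kinase on that chain, ranged from 5.71 to 6.45 in Control (median 6.20), from 3.67 to 5.86 in PAT1 (median 5.49) and from 4.86 to 5.88 in PAT3 (median 5.44). All 17 antibiotic-exposed mice were below the Control mean of 6.09 ± 0.26 (SD, n = 7). The difference was -0.88 in PAT1 (SE 0.26) and -0.65 in PAT3 (SE 0.24). The lowest Jak3 values were in shallow samples, PAT1 replicates 3 and 1 (3.67 and 4.63) and PAT3 replicate 7 (4.86), and without the 4 samples below 400000 counts the PAT1 difference was -0.42 and no longer past the threshold.

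Il21r, the IL-21 receptor, spread widely in PAT1. It ranged from 4.63 to 5.46 in Control (median 5.08), from 3.19 to 6.91 in PAT1 (median 4.31) and from 3.10 to 4.92 in PAT3 (median 3.58). In PAT3 only replicate 10 (4.92) reached the Control range, and in PAT1 replicates 7, 2 and 4 (6.91, 5.49 and 5.01) stood above the other 4. The difference was -0.46 in PAT1 (SE 0.40) and -1.37 in PAT3 (SE 0.37, 0.387-fold, 95% interval 0.229 to 0.652). Il7r, the IL-7 receptor alpha chain, had a Control mean of 6.34 ± 0.26 (SD, n = 7), a PAT1 mean of 6.40 ± 0.41 (SD, n = 7) and a PAT3 mean of 6.29 ± 0.27 (SD, n = 10). The groups overlapped throughout, with differences of 0.06 (SE 0.17) and -0.05 (SE 0.16). The 95% interval of the fold was 0.812 to 1.33 in PAT1 and 0.766 to 1.21 in PAT3.

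Over the 8 genes, 4 passed an adjusted p of 0.05 in PAT1 (Il15 higher, and Il7, Il2rb and Jak3 lower) beside 18.5% of all genes (7.31% higher and 11.2% lower). In PAT3 6 passed (Il15 higher, and Il7, Il2rb, Il2rg, Il21r and Jak3 lower) beside 31.8% (13.9% higher and 17.9% lower). The groups did not overlap for 1 member in PAT1 (Il15; 6.22% of all genes) and for 2 in PAT3 (Il2rb and Il2rg; 9.32%). Since these contrasts picked the genes, nothing is read from those counts. The median difference over the 8 was -0.45 in PAT1 and -0.56 in PAT3, beside 0.01 and 0.03 over all genes. Scaling bears on the smaller differences, and the calls that follow are likewise a description and not a test. After re-centring on the median or quantile normalization, Il15 and Jak3 remained past the threshold in PAT1 and Il7 and Il2rb did not, and in PAT3 Il15, Il2rb, Il2rg and Il21r remained and Il7 and Jak3 did not.

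**Figure D2:**
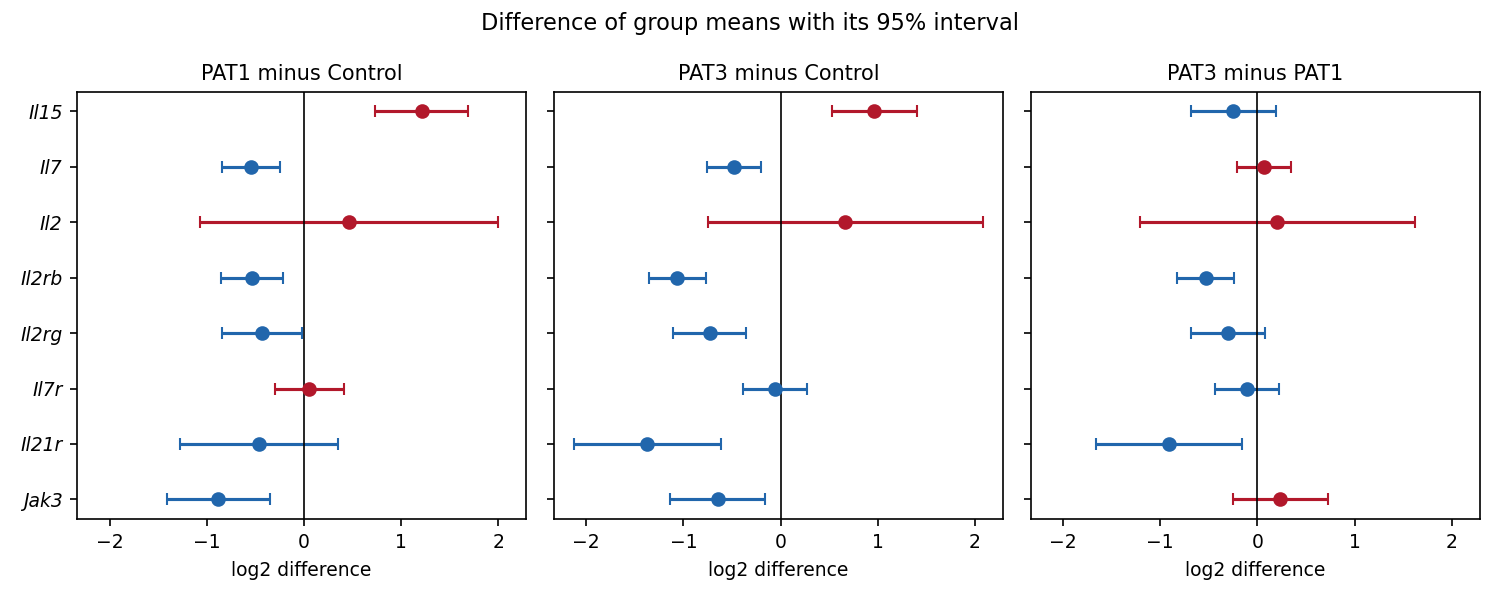
Difference of group means (log2, x axis) for each gene, with its 95% interval from the fit across all genes, red where above 0 and blue where below. Il15 is the one gene whose interval lies above 0 against Control, and Il2rb lies at -0.53 in PAT1 and -1.06 in PAT3.

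The ligand and its receptor chains can be set against each other within a mouse. Il15 minus the mean of Il2rb, Il2rg and Jak3 ranged from -0.75 to 0.28 in Control, from 0.90 to 2.82 in PAT1 and from 0.19 to 2.20 in PAT3. It averaged -0.26 in Control, 1.57 in PAT1 and 1.52 in PAT3, so the mean gap was wider than in Control by 1.82 (SE 0.31) and 1.78 (SE 0.25). Between the antibiotic groups it differed by -0.05 log2 (SE 0.34, two-sided exact permutation p = 0.887 over 19448 arrangements). With Il2rb alone as the receptor the difference was 0.28 (exact permutation p = 0.354). Across the mice, taken as deviations from their group means, Il15 and Il2rb showed no relation past the threshold among the 60 relations examined (r = -0.145, adjusted p = 0.666; Spearman rho = -0.239, adjusted p = 0.442, permutation tests, n = 24). Of the remaining receptor genes, Il2rg came closest (r = -0.418, adjusted p = 0.104).

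Repeated courses were compared with 1 course directly. Of all genes 23 passed (4.2%; 1.46% higher and 2.74% lower in PAT3), and among the 8 only Il2rb did, lower in PAT3 by 0.53 log2 (difference -0.53, SE 0.14, 0.692-fold, 95% interval 0.564 to 0.848, limma adjusted p = 0.0401), with all 10 PAT3 mice below the PAT1 mean. That call was not firm. Leaving out single mice moved its adjusted p between 0.0126 and 0.135, and 12 of 24 such fits lost it (without PAT1 replicates 1, 2, 4 or 7, or PAT3 replicates 1, 2, 3, 4, 5, 6, 8 or 9). Its value stayed between -0.60 and -0.42 in all of them, and the lowest size and highest adjusted p came without PAT1 replicate 2. It was also lost without the 3 PAT1 mice rich in B cell genes or the 4 shallow samples. In each of these fits that lost it no gene of the panel passed, so every other call between PAT3 and PAT1 was lost with it. The mean of T cell genes had the same order of groups as Il2rb. The mean log2 level of 9 T cell genes ranged from 6.12 to 6.45 in Control. It ranged from 5.22 to 6.31 in PAT1 and from 4.65 to 5.77 in PAT3. Of the 9, 3 (Cd2, Cd3d and Lck) fell in PAT3 against PAT1. Across the mice, taken as deviations from their group means, the relation of the T cell mean to Il2rb missed the threshold. It had r = 0.656 (adjusted p = 0.0615) and Spearman rho = 0.555 (adjusted p = 0.106, permutation tests, n = 24). The r was 0.073 within Control, 0.507 within PAT3 and highest within PAT1. With the T cell mean in the fit the Il2rb difference was -0.20 (limma adjusted p = 0.969), and no gene of the panel passed. The T cell mean itself was lower in PAT3, so that fit cannot tell the 2 apart.

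Il21r had the largest mean difference between PAT3 and PAT1, -0.91 (SE 0.37, limma adjusted p = 0.107), and its value without the 3 PAT1 mice rich in B cell genes was 0.0032. Il15 differed by -0.25 (95% interval of the fold 0.621 to 1.14, adjusted p = 0.475), so a level in PAT3 up to 1.14 times that of PAT1 lies inside the interval. Adjusted p was 0.299 for Il2rg (-0.30), 0.541 for Jak3 (0.23), 0.796 for Il7 (0.06), 0.683 for Il7r (-0.11) and 0.891 for Il2 (0.20), all by limma. For Il15 the order of means was PAT1, PAT3, Control, with PAT1 and PAT3 not separated beyond their spread, and for Il2rb it was Control, PAT1, PAT3.

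The sexes were also compared. None of the 8 passed between females and males in the limma fit with treatment and sex (0.366% of all genes did), and 2 had an unadjusted p under 0.05. Jak3 was higher in females by 0.52 log2 (SE 0.17, adjusted p = 0.195), with group means of 5.94 in male and 6.29 in female Control mice, 4.80 and 5.76 in PAT1, and 5.25 and 5.57 in PAT3. The PAT1 males include replicates 1, 2 and 3, which are under 400000 counts and held 10, 33 and 7 counts of Jak3. Across mice Jak3 had r = 0.616 with the log2 total count (permutation test, adjusted p = 0.0527 over 8 such relations). The part of depth in the sex difference was not tested. Il7 had a difference of -0.27 (SE 0.10, adjusted p = 0.304), lower in females in each group. The difference of the antibiotic effect between sexes passed for 0 of 8 (0.183% of all genes), 0 of them at an unadjusted p under 0.05. For Il15 it was -0.07 log2 in PAT1 and -0.16 in PAT3 (female effect minus male effect, adjusted p = 0.963).

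Within groups, Il15 followed genes of the epithelium. Each mouse was set against its group mean, and Il15 correlated with the mean of 5 enterocyte genes (Abcb1a, Btnl1, Ccl25, Ceacam1 and Dpp4) with r = 0.672 (permutation p = 0.00146, adjusted p = 0.0219) and rho = 0.662 (p = 0.00075, adjusted p = 0.0336, n = 24). The r was 0.940 within Control, 0.395 within PAT1 and 0.689 within PAT3, and 0.463 over all without Control replicate 4 and PAT3 replicate 5, so part of it rested on those mice. PAT3 replicate 5, with the lowest Il15 of its group, had the lowest enterocyte mean of all 24 (11.80), and PAT3 replicate 3, the next lowest, had 12.86. The enterocyte mean itself was lowest in Control, at 12.81 ± 0.51 (SD, n = 7), with PAT1 at 13.19 ± 0.49 (SD, n = 7) and PAT3 at 13.12 ± 0.56 (SD, n = 10). With it in the fit, Il15 was higher than in Control by 0.99 in PAT1 and by 0.78 in PAT3, against 1.21 and 0.96 without it. Of the 5 genes, Ccl25 was higher in both antibiotic groups (by 1.13 and 0.81), Btnl1 in PAT1 (0.94) and Abcb1a in PAT3 (1.01), and Ceacam1 was lower in both (-1.26 and -1.05), each past the threshold.

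Il7r varied the opposite way to the enterocyte genes, with r = -0.669 (p = 0.00059, adjusted p = 0.0144) and rho = -0.610 (adjusted p = 0.0678). Within Control the r was -0.711, within PAT1 -0.723 and within PAT3 -0.651, and it was -0.623 without the 2 outermost mice. Depth ran alongside, and Il7r had r = -0.560 with the log2 total count of the sample (adjusted p = 0.0527 over 8 such relations). The part of depth in the first relation was not tested.

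**Figure D3:**
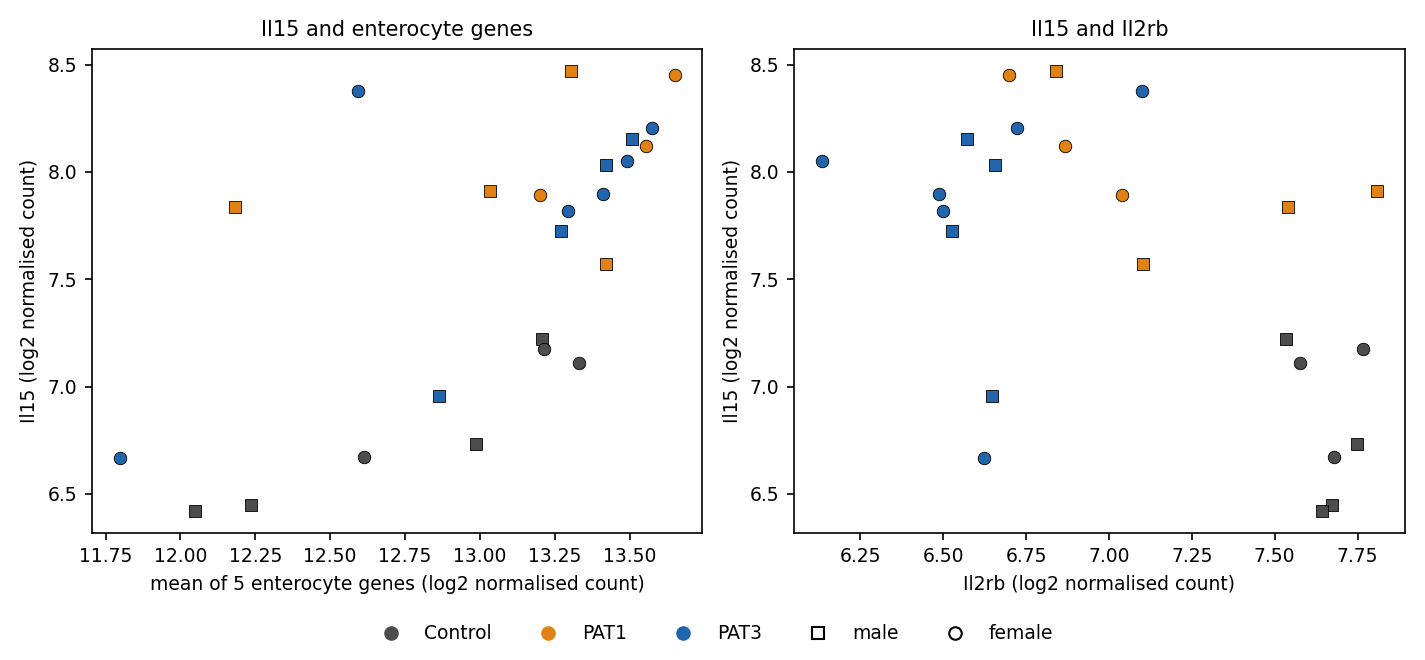
Il15 in each mouse (y axis, log2 normalised count) against the mean of 5 enterocyte genes (left) and against Il2rb (right), coloured by group, squares male and circles female. On the left, the Control mice climb from 6.42 to 7.22 with the enterocyte mean; on the right, Control occupies the corner of high Il2rb (7.53 to 7.77) and low Il15.

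The genes whose pattern over the 24 mice was most like that of Il15, among 426 genes with a median count of at least 20, are given as a description with no test. They were Cdkn1a (r = 0.88), a cell cycle inhibitor, Cd82 (0.88), a tetraspanin, Relb (0.87), an NF-kB subunit, Casp8 (0.83), an apoptosis caspase, and Ifngr2 (0.83), a chain of the interferon gamma receptor. The least like were Lilrb4 (-0.75), an inhibitory receptor of myeloid cells, Tgfb1 (-0.74), Tmem173 (-0.72), which encodes the DNA-sensing adaptor STING, Cybb (-0.70), the phagocyte oxidase subunit, and Csf1r (-0.69), the macrophage growth factor receptor. Each of these 10 kept its sign within Control, PAT1 and PAT3.

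For Il2rb the closest were Bst2 (0.83), Cd48 (0.81), Cxcl9 (0.74), Arhgdib (0.73) and Tnfrsf17 (0.70). Bst2 and Cxcl9 are interferon-induced, and with Bst2 the r was 0.09 within Control, 0.93 within PAT1 and 0.71 within PAT3. For Il7 they were Casp1 (0.69), Fcgrt (0.66), Il10rb (0.65), Bid (0.62) and Cfb (0.61). For Il7r they were the leukocyte integrin chains Itgb2 (0.75) and Itga4 (0.72), the Fc receptor Fcgr1 (0.73), Lilrb3 (0.71) and the complement gene C6 (0.70).

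The receptor chains followed lymphoid tissue in some mice. Il2rg and Il21r correlated with each other (r = 0.815, p = 0.00072, adjusted p = 0.0144; rho = 0.650, adjusted p = 0.0787), with r = 0.921 within PAT1, 0.612 within PAT3 and 0.070 within Control, and 0.702 without Control replicate 4 and PAT1 replicate 7. Il21r correlated with the mean of 9 B cell genes (r = 0.768, p = 0.0024, adjusted p = 0.0288; rho = 0.643, adjusted p = 0.106), but r was 0.958 within PAT1, 0.467 within Control and -0.167 within PAT3. PAT1 replicates 7, 2 and 4 had B cell means of 8.46, 7.23 and 6.92 and the other PAT1 mice 4.32 to 5.09, so the relation rested on PAT1. Without those 3 mice the difference from Control in PAT1 was -1.37 for Il21r and -0.84 for Il2rg, against -0.46 and -0.43 with them, which is a description. Il2rg also correlated with the mean of 5 genes of lymphoid stroma (Ccl19, Cxcl12, Cxcl13, Pdgfrb and Vcam1; r = 0.789, p = 0.00042, adjusted p = 0.0144; rho = 0.680, adjusted p = 0.0336), with r = 0.821 within Control, 0.905 within PAT1 and 0.101 within PAT3, and 0.607 without its 2 outermost mice. Whether follicle content of the piece of ileum accounts for these values was not tested.

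**Figure D4:**
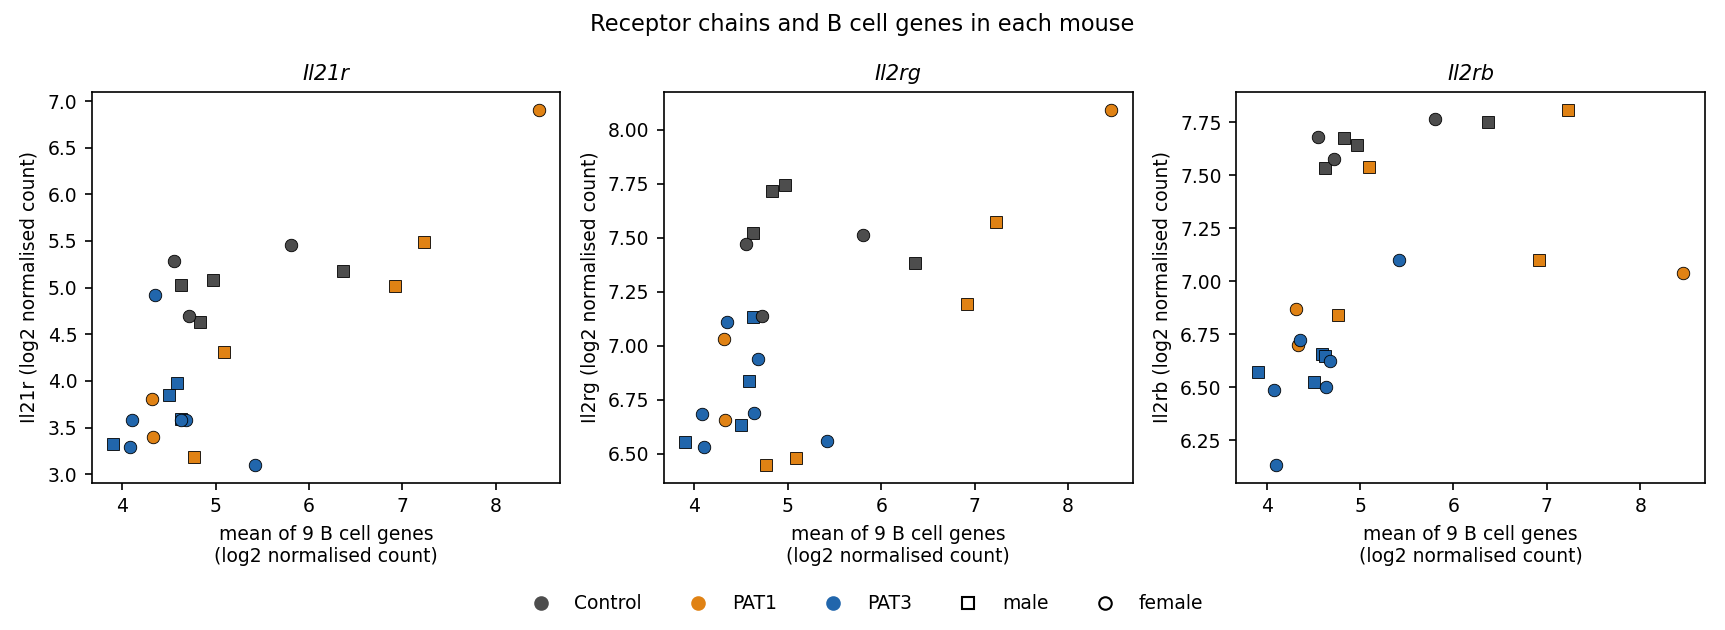
Il21r, Il2rg and Il2rb in each mouse (y axes) against the mean of 9 B cell genes (x axis), all as log2 normalised counts, coloured by group, squares male and circles female. The 3 PAT1 mice with B cell means of 6.92 to 8.46 hold the highest Il21r and Il2rg of their group, and Il2rb is higher in every Control mouse than in any PAT3 mouse.

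Further genes of the family and of its signal relay passed at about the share of all genes or below it. Of 10 further genes listed with the family, among them the related Tslp, Crlf2 and Il13ra1, 9 were on the panel. In either antibiotic group 0 passed the limma threshold, against 18.5% of all genes in PAT1 and 31.8% in PAT3. Their median differences were -0.04 in PAT1 and -0.22 in PAT3. Il4, Il9 and Il21 had group median counts of 6 to 12, so low counts limit them. Il15ra, which presents IL-15, differed by -0.39 in PAT1 (SE 0.15) and -0.30 in PAT3 (SE 0.13), and Il2ra by -0.04 and -0.29. Among 10 genes that relay the signal, 2 passed in PAT1 and 3 in PAT3, close to the share of all genes. Socs3, a feedback inhibitor of JAK signalling, was lower in both groups (-1.31, SE 0.22, and -1.54, SE 0.20), Socs1, another, was lower in PAT3 (-0.84, SE 0.18), Ptpn6, the phosphatase SHP-1, was higher in PAT1 (0.49, SE 0.14) and Stat6 was higher in PAT3 (0.43, SE 0.14). Stat5a and Stat5b, the STATs used by IL-2, IL-7 and IL-15, were not among those that passed, with PAT3 differences of 0.40 and 0.27. Nor was Cish, another feedback inhibitor, which differed by 0.35 in PAT1 and 0.39 in PAT3.

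Of 6 measured genes of lymphocyte survival and fate, 1 passed in PAT1 and 3 in PAT3, against 18.5% and 31.8% of all genes. Tbx21, the T-bet gene, was lower in both (-0.65 and -0.60), Prdm1 was lower in PAT3 (-0.66), and Bcl2, a survival gene kept up by γc cytokines, was higher in PAT3 (0.68, SE 0.16). Of 15 measured genes that act upstream of Il15 in interferon and Toll-like receptor signalling, 2 were higher and 4 lower in PAT1, and 5 were higher and 3 lower in PAT3. The shares over all genes were 7.31% higher and 11.2% lower in PAT1, and 13.9% and 17.9% in PAT3. Those higher in PAT3 were Ifngr1 (0.58), also higher in PAT1 (0.57), Irf3 (0.48), Rela (0.41), Ifnar1 (0.35) and Ifnar2 (0.28). Irf1 (-0.66 and -0.63), an interferon factor, and Irf8 (-0.52 and -0.53) were lower in both groups. Irf7 was higher in PAT1 (1.38, SE 0.41), and Tlr4, the endotoxin receptor, was lower in PAT1 (-0.59, SE 0.15). Tlr4 was the 1 gene of these that differed between the antibiotic groups (0.48, SE 0.13, limma adjusted p = 0.0401, higher in PAT3). That call was lost in the single-mouse fits that lost the Il2rb call between PAT3 and PAT1, since no gene passed in them.

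Cells that use IL-15 were read through their genes. Of 17 measured genes of intraepithelial lymphocytes, which entered the choice of the 8 genes and so are a description here, 7 were past the threshold and lower in PAT1 and 11 in PAT3, against 11.2% and 17.9% of all genes, and 0 were higher. The median was -0.33 in PAT1 and -0.73 in PAT3. Gzma (-1.52 and -2.52) and Gzmb (-1.62 and -2.33), the granzymes, Ccl5 (-1.32 and -1.97), a T cell chemokine, and Cd8a (-0.94 and -1.84) were the farthest from Control. Between PAT3 and PAT1 3 of the 17 passed, all lower in PAT3, against 2.74% of all genes. They were Cd8a (-0.90, SE 0.22, limma adjusted p = 0.0401), Cd69 (-0.79, limma adjusted p = 0.0401) and Klrd1 (-0.53, limma adjusted p = 0.0419). Il2rb was lower there too, whereas Gzma and Gzmb did not pass (-0.99 and -0.71, adjusted p = 0.0923 and 0.132). These calls were not firm either: the single-mouse fits that lost the Il2rb call held no gene that passed. Of 4 measured natural killer receptor genes 0 passed in PAT1 and 1 in PAT3, Klra7 (-0.69, SE 0.25), whose counts are uncertain because its family holds near-identical copies. Over all genes 18.5% passed in PAT1 and 31.8% in PAT3. All 4 had group median counts of only 5 to 16, so this list says little about natural killer cells.

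Of 9 general T cell genes, 2 passed and were lower in PAT1 and 7 in PAT3, against 11.2% and 17.9% of all genes, so that the PAT1 count says little about the list. Cd3e (-0.90 and -1.38) and Cd6 (-0.84 and -1.39) passed in both, and Cd3d (-1.27) and Cd5 (-1.31) in PAT3. With the T cell mean in the fit, the PAT3 difference from Control was -0.50 for Il2rb, -0.22 for Il2rg, 0.04 for Il21r, -0.74 for Jak3 and 0.84 for Il15. Of the 8 genes Il7 alone (-0.81) was past the threshold in that fit. Of all 547 genes 27 passed in it, against 174 without the T cell mean. Since the T cell mean itself differed between the groups, that fit cannot tell it and the treatment apart. Of 9 B cell genes 0 passed in PAT1 and 1 in PAT3, Cd79b (-1.26, SE 0.44), and of 5 genes of lymphoid stroma 0 and 2, Pdgfrb (0.73) and Cxcl12 (0.40), both higher. Of 6 myeloid genes Itgam alone passed, lower in both groups (-0.92 and -0.68). Of 5 genes of type 3 innate lymphoid cells, which need IL-7, 0 passed in PAT1, and in PAT3 Il22 was lower (-1.56, SE 0.44) and Kit higher (0.68, SE 0.26). Over all genes 18.5% passed in PAT1 and 31.8% in PAT3 (13.9% higher and 17.9% lower). The counts in the short B cell, stroma, myeloid and type 3 lists therefore say little about those lists.

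**Figure D5:**
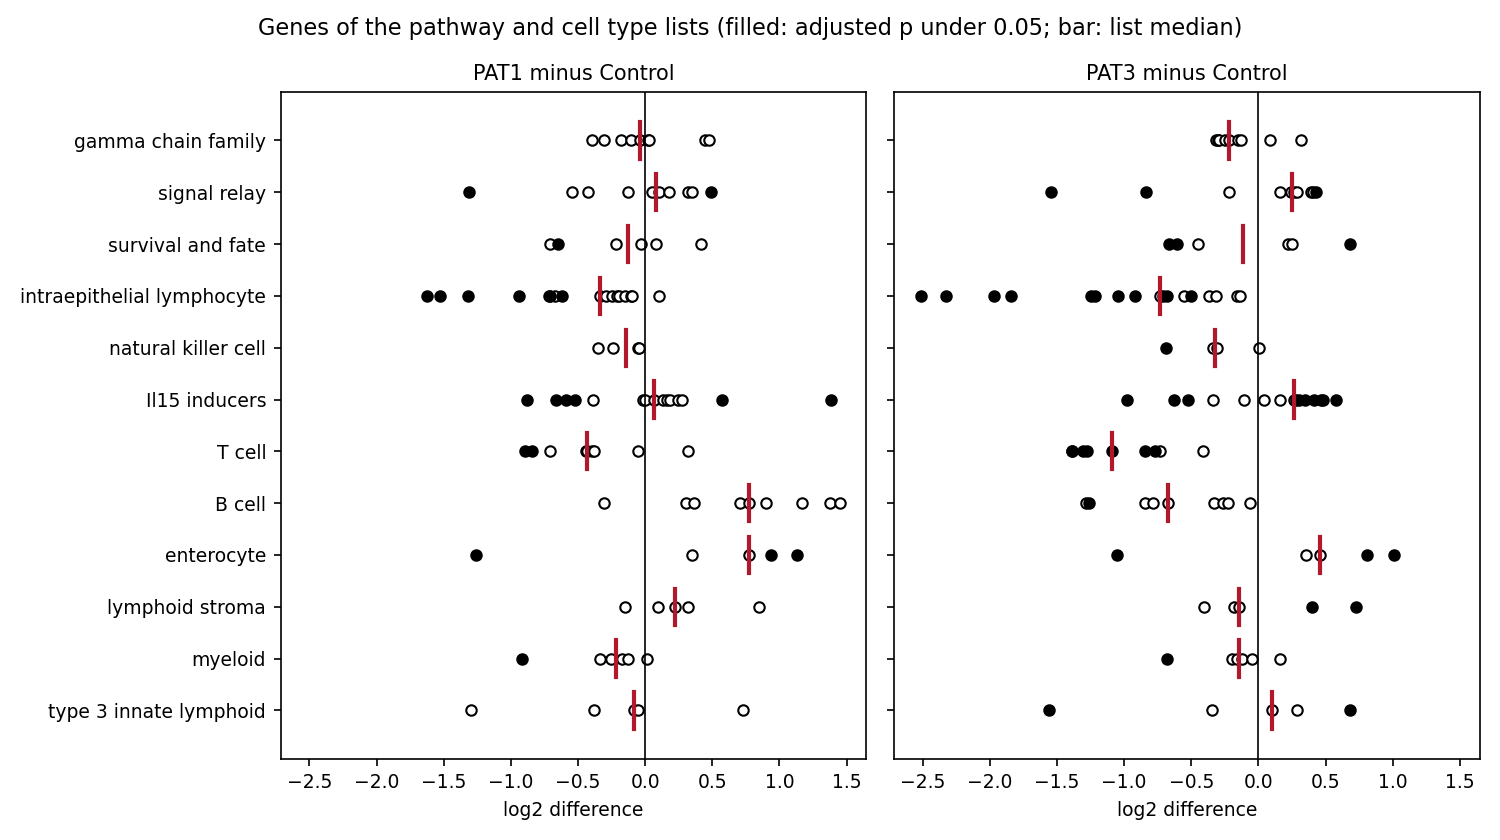
Difference from Control (log2, x axis) of each measured gene of the pathway and cell type lists, filled where the adjusted p was under 0.05, with the list median as a red bar. The intraepithelial lymphocyte and T cell lists lie left of 0, with medians of -0.73 and -1.09 in PAT3. No gene of the γc family list, which also holds related genes, is filled.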

How the data were processed

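Total RNA from the terminal ileum of 24 mice was counted with the mouse immunology panel of NanoString, whose barcoded probes are counted singly and without amplification. The authors normalised the counts with DESeq2 and deposited log2 values of 547 genes. Their probe background handling is not given in the sources used here, and the table names no genome build. Groups and sex came from the labels. All value columns were matched to a sample, leaving 0 unmapped. Raising 2 to each value gave whole counts for 100% of values above 0 (tolerance 0.01 counts, largest deviation 0.000253), from which totals of 171671 to 782392 counts per sample were read. A count of 0 is listed as 0, which touched 19 values in 9 genes, so values near 0 have no order. Low counts widen the error, and the SDs given hold both counting error and the spread between mice.

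The deposited log2 values of all 547 genes were fitted with limma 3.58.1 (lmFit and eBayes, R 4.3.3) over the 24 samples, with no covariate, no filter and no added pseudocount. Each contrast was adjusted by the Benjamini-Hochberg method over 547 genes at 0.05. Sex was tested in a fit with treatment and sex, and its interaction with treatment in a fit of the 6 treatment-by-sex means. The script was tested on simulated data first. P-values treat mice as independent, although mice of a group came from whole litters and shared cages by sex. Correlations used deviations from group means, with 100000 permutations and adjustment over 60 relations. The members, gene lists and tests were chosen with earlier results of these data known. The text names all 8 members, up to 4 genes per list with the largest called difference from Control, and for likeness the 5 highest and 5 lowest correlates of Il15 and the 5 highest of Il2rb, Il7 and Il7r. Cd2, Lck, Stat5a, Stat5b, Il15ra, Il2ra, Ifngr1, Irf3, Rela, Ifnar1 and Ifnar2 were named outside that rule after their values were seen. So were Cish, Irf8, Il4, Il9, Il21, Tslp, Crlf2, Il13ra1, Cd69 and Klrd1. One gene that the rule names is not reported here.

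Alternatives were the methods' test (aov with TukeyHSD), re-centring on the median, quantile normalization, scaling to the total, a minimum median count of 20, a pseudocount of 1, voom on the recovered counts, sample weights, covariates (size factor, sex, and B cell, enterocyte or T cell list means), each sex alone and leaving out each mouse. Fits without 3 PAT1 mice rich in B cell genes, fits without 4 samples under 400000 counts and correlations with total count were added after seeing the data. Promoters are those of RefSeq on GRCm38.p6.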

Additional observations from a re-analysis of the deposited data

Results flagged for a closer look

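Among 27 groups of values tested for a sample far from the others (8 genes and the gap between Il15 and its receptor chains, in 3 groups), 1 stood out. Il21r was 4.92 in PAT3 replicate 10, a female, and the next highest PAT3 mouse was at 3.98. The gap was 0.516 of the group's range, above the critical value of 0.466 for 10 samples. About 1 in 20 such groups passes by chance. The B cell gene mean of that mouse was 4.35 and its T cell gene mean 5.72, and their part in its Il21r value was not tested. The group sizes the study states differ from the labels by a single mouse between PAT1 and PAT3, and which mouse that is was not determined. Without PAT3 replicate 10, the PAT3 minus PAT1 difference was -1.05 for Il21r (limma adjusted p = 0.0567) and -0.55 for Il2rb (limma adjusted p = 0.0341).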

How the results depend on the processing

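No paired analysis was possible because the replicate numbers only follow the order of the samples. The calls against Control are a description and not a test, because those contrasts picked the genes. Against Control, 4 members passed in PAT1, and 2 did after re-centring on the median, after quantile normalization or in males alone, 0 did in females alone, and 4 to 5 did on leaving out a mouse (Il2rg joined without PAT1 replicate 7). In PAT3 6 members passed, and 1 did with the T cell mean as a covariate or in females alone. Leaving out a mouse gave 5 to 6, Jak3 being the one lost. The count over all 547 genes moved as well. In PAT1 it was 101, then 103 after re-centring, 111 after quantile normalization, 57 in males alone and 23 in females alone. In PAT3 it was 174, then 27 with the T cell mean and 57 in females alone. With the T cell mean, the Il21r difference in PAT3 reversed to 0.042. Between PAT3 and PAT1 1 member passed, and 0 did by the methods' test, after quantile normalization or scaling to the total, with the size factor, B cell mean or T cell mean as a covariate, in females alone, without the 3 PAT1 mice rich in B cell genes or without the 4 shallow samples. With sample weights 2 passed (Il2rb and Il21r), and leaving out a mouse gave 0 to 2, the latter without PAT1 replicate 6. Over all genes 23 passed, 32 after quantile normalization, 93 with sample weights and 86 without PAT1 replicate 6. In the remaining fits where 0 members passed, 0 genes of the panel did. Between the sexes 0 passed, and 1 did with sample weights (Jak3) or with the enterocyte mean (Il7). Over all genes 2 passed between the sexes, 23 with sample weights and 14 with the enterocyte mean.

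Differences of PAT3 from PAT1 that missed the threshold changed sign in some fits. Il2 was -0.41 with sample weights, -1.11 in males, -0.15 without the B cell-rich mice and -0.13 to 0.46 on leaving out a mouse. Il7 was -0.0451 with the B cell mean and -0.13 with the T cell mean. Il2rg was 0.052 with the B cell mean and 0.11 without the B cell-rich mice, where Il21r was 0.0032. Il7r was 0.15 with the T cell mean, 0.071 in females and -0.20 to 0.0088 on leaving out a mouse. Jak3 was -0.013 with the size factor, -0.18 in females, -0.16 without the shallow samples and -0.023 to 0.34 on leaving out a mouse. The gap between Il15 and receptor went from -0.05 to 0.28 with Il2rb alone. Among the 100 list genes 8 differed between PAT3 and PAT1, 16 after re-centring and 0 without the B cell-rich mice. Over all genes 4.2% passed in the main fit and 0 genes without the B cell-rich mice. The share over all genes after re-centring is not given here, so nothing is read from that count. By Spearman's rho 2 relations passed, against 5 by Pearson's r. The causes were not tested. Il2, with 0 to 14 counts, is limited by depth.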
